A study of Mus musculus with 21 samples.

Results

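Stigmasterol was compared with vehicle in the testes of 10-day-old knockout mice, meant to lack a working FXR gene. Every gene with enough reads was compared. The comparison takes 6 of the 21 libraries, 3 stigmasterol-treated knockouts (animals T10, T15 and T93) and 3 vehicle-treated knockouts (T1, T90 and T110), and 20254 of the 32643 annotated genes. The study has 6 groups in all, vehicle, bisphenol A (BPA) or stigmasterol in wild-type mice (4 animals per group) and in FXR knockout mice (3 per group). Each library is poly-A RNA of the testis of 1 male at postnatal day 10, on a mixed 129sv and C57Bl6 background, and all were run on 1 flowcell. No source used here states dose, route, exposure times, the deleted part of the FXR gene, litters or the strain share of an animal. The p-values rest on the spread between animals of the same group, estimated over all 21 libraries and not from the 6 compared alone. Both groups are labelled as the same knockout, so the comparison asks how testes differed with the plant sterol in mice meant to lack this receptor.

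Stigmasterol is a plant sterol of the diet that differs from cholesterol in its side chain. In cultured cells it is known as an antagonist of FXR (gene Nr1h4), the nuclear receptor that senses bile acids, as an activator of LXR, the nuclear receptors that sense oxysterols and switch on sterol export, and as a brake on the processing of SREBP2, the factor that drives cholesterol synthesis. A testis of this age holds Sertoli cells, the somatic nurse cells of the tubules, spermatogonia and early meiotic germ cells, and Leydig cells between the tubules make steroids from cholesterol.

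Summed counts lay between 38943327 and 61498855 in the 6 libraries, and 3 counts, the limit that a count of 0 allows per library, corresponded to 0.0484 to 0.076 CPM (read counts scaled to the TMM-adjusted library size). The limit covers counting error only. Levels are CPM throughout, which compare animals for a gene but not genes of different length. The defining Sertoli markers were present in every animal (Sox9 at 148 to 169 CPM). Epithelial genes of the excurrent ducts were not even: Cdh16, a kidney and duct cadherin, was at 39.9, 1.16 and 22.6 CPM in vehicle animals T1, T90 and T110 and at 86.0, 0.949 and 203 CPM in stigmasterol animals T10, T15 and T93. The first principal component of the 6 libraries, 40.9% of the variance, put T93 at 48.6, T1 at 22.2 and T10 at 17.1 at one end and T15 at -40 and T90 at -43.2 at the other, so it ordered animals of both groups together. A tissue with fewer cells of a type and one with less RNA per cell cannot be told apart in such bulk samples, here and below.

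No gene passed the test between the groups. In edgeR's quasi-likelihood test over all 20254 genes, 0 genes (0%) had a Benjamini-Hochberg adjusted p under 0.05, and the smallest adjusted p was 0.18, for the histocompatibility gene H2-Q10. DESeq2 called 1 gene, H2-Q10, and limma-voom 0. At an unadjusted edgeR p under 0.05 there were 779 genes (3.85%), 498 with a higher fitted level under stigmasterol (2.46%) and 281 with a lower one (1.39%). Values of the groups did not overlap at all for 1943 genes (9.59%), 938 with every stigmasterol animal above every vehicle animal (4.63%) and 1005 with every one below (4.96%). Fitted differences were centred on 0, with a median of 0.005 on the log2 scale and 51.8% above 0.

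The precision behind that count differed by expression level. Of the 10953 genes with a mean of at least 10 CPM, 97.4% had a 95% interval of the log2 difference wholly inside -1 to 1, and the median half-width was 0.22. Over all genes tested that held for 78.4%, with a median half-width of 0.37. A fitted difference of at least 1 in size was found for 25 of the genes at 10 CPM or more, 23 above 0 and 2 below. The plot of effect size against p shows H2-Q10 standing apart from all other genes.

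**Figure D1:**
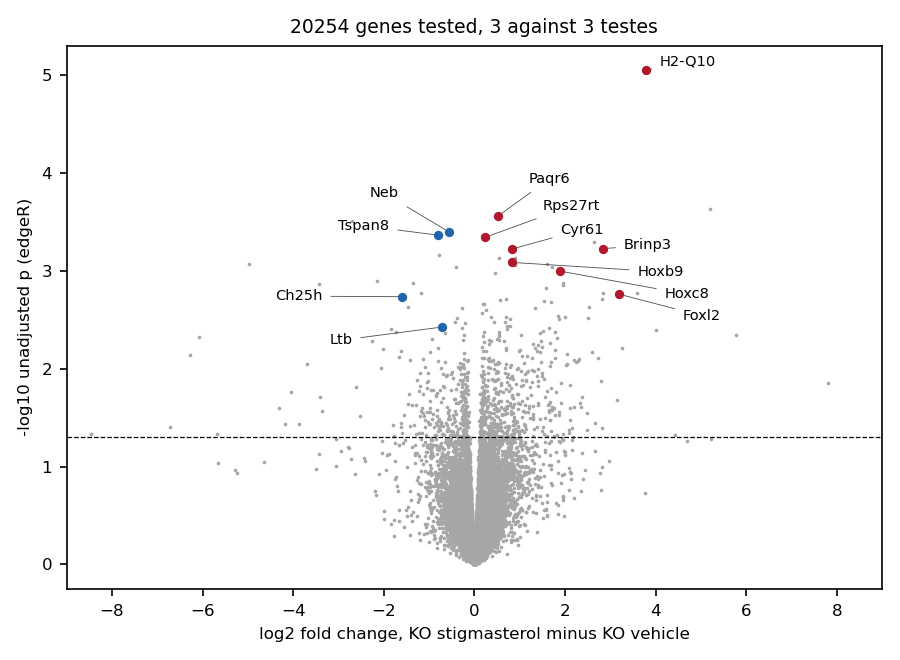
Fitted log2 difference (x axis, stigmasterol minus vehicle in FXR knockout testis) against -log10 of the unadjusted edgeR p (y axis) for 20254 genes, with the dashed line at the 0.05 threshold. Named genes are coloured red above 0 and blue below, and H2-Q10 at 3.80 is the only gene above 5 on the y axis.

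The 498 genes on the higher side leaned on 1 animal. T93 was the highest of the 6 libraries for 321 of them (64.5%), against 22.1% of all genes tested, T10 for 91 and T15 for 86. Their groups did not overlap for 266 (53.4%). On the lower side the stigmasterol animals shared the lowest place more evenly, with T93 lowest for 81, T10 for 75 and T15 for more than either of the 281, and the groups did not overlap for 209 (74.4%). Both sets were picked by p in these same animals, so their separation follows in part from that choice and is no separate support. Over all genes the share without overlap was 9.59%.

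The genes of smallest p on the higher side belonged to several kinds. H2-Q10 (chromosome 17, 35470089 to 35474563 in mm10), a secreted class Ib histocompatibility molecule best known from liver, was at 2.09, 1.81 and 1.67 CPM in T1, T90 and T110 and at 2.16, 34.7 and 40.8 CPM in T10, T15 and T93. The stigmasterol group thus held 2 animals well above the vehicle range and 1, T10, just at its upper end. Its log2 difference was 3.80 ± 0.63 (SE), with a 95% interval of 2.49 to 5.12. That interval is for the group difference and uses the spread estimated over all 21 libraries. It does not describe the spread among the stigmasterol animals, which were at 25.9 ± 20.8 CPM (SD, n = 3).

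Paqr6, a membrane progestin receptor (chromosome 3, 88364584 to 88368541), was at 3.78, 4.4 and 3.903 CPM under vehicle and 5.86, 5.32 and 6.19 CPM under stigmasterol. The groups were apart, at a log2 difference of 0.52 ± 0.12 (edgeR adjusted p = 0.981). A share of 33.5% of the 50-base windows of its coding sequence also occurs in transcripts of 2 other annotated genes, Gm21956 and Gm6821, so its count is uncertain to that extent.

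Cyr61, a matricellular protein whose gene is a known target of the YAP pathway (chromosome 3, 145646971 to 145649985), stood at 9.92, 9.01 and 11.5 CPM under vehicle. It stood at 18.95, 15.7 and 19.8 CPM under stigmasterol, all above the vehicle animals, a log2 difference of 0.84 ± 0.20. Its coding sequence shares no 50-base window with another gene. Chrnb1, the beta subunit of the muscle acetylcholine receptor, was at 10.5, 9.80 and 9.05 CPM against 13.55, 12.1 and 17.15 CPM, a log2 difference of 0.55 ± 0.14 without overlap. Skap1, an adaptor of T cell receptor signalling, was low in all animals at 1.12, 0.806 and 1.27 CPM against 1.54, 1.74 and 1.898 CPM, again without overlap (0.70 ± 0.20).

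Other genes of this side were highest in T93 and second in T10, with T15 near the vehicle animals. Mybpc2, a myosin-binding protein of fast muscle, was at 1.33, 1.16 and 1.04 CPM under vehicle and at 3.52, 1.66 and 5.47 CPM in T10, T15 and T93 (log2 difference 1.59 ± 0.40). The same order held for Brinp3, a gene of the nervous system, at 0.201, 0.0967 and 0.228 CPM against 1.25, 0.221 and 2.24 CPM (2.85 ± 0.69), where T15 overlapped the vehicle range. Gng4, a G protein gamma subunit, was at 0.763, 0.677 and 0.710 CPM against 1.48, 0.971 and 4.55 CPM (1.71 ± 0.43). Foxl2, the transcription factor that maintains ovarian identity, was near the detection limit under vehicle, at 0.141, 0.113 and 0.0760 CPM, and at 0.681, 0.0442 and 2.34 CPM under stigmasterol (3.19 ± 0.87). Its neighbour on the other strand, Foxl2os, went with it at 0.823, 0.387 and 0.862 CPM against 3.70, 0.464 and 10.4 CPM (2.83 ± 0.78), and because the library kit keeps no strand, reads of the pair cannot be told apart where they overlap. Without T10 and T93 the fitted difference was -1.28 for Foxl2 and -0.56 for Foxl2os. Lhx1os, beside the spermatogonial homeobox gene Lhx1, showed the same order (1.95 ± 0.52), and Lhx1 itself was at 3.76, 2.82 and 3.50 CPM against 5.99, 3.49 and 11.35 CPM.

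Among genes picked by p on the lower side, the groups were more often apart in all animals than on the higher side, and most differences were small. Neb, which encodes nebulin, the giant ruler protein of skeletal muscle thin filaments (chromosome 2, 52136647 to 52338798), was at 24.6, 28.6 and 29.8 CPM under vehicle and 14.6, 18.1 and 23.4 CPM under stigmasterol. Its log2 difference was -0.56 ± 0.13 (edgeR adjusted p = 0.981). Tspan8, a tetraspanin membrane protein, was tight in both groups, at 3.92, 4.14 and 4.00 CPM against 2.02, 2.43 and 2.43 CPM (-0.81 ± 0.19).

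Rbm15, an RNA-binding partner of the m6A writer complex, was at 40.6, 43.9 and 35.1 CPM against 32.4, 30 and 28.1 CPM (-0.40 ± 0.10). Slc26a2, a sulfate transporter, was at 67.3, 68.4 and 64.2 CPM against 50.6, 51.5 and 51.6 CPM (-0.38 ± 0.11). C1rl, a complement C1r-like protease, was at 1.21, 1.13 and 1.55 CPM against 0.567, 0.508 and 0.633 CPM (-1.17 ± 0.32). In each of these 3 genes the lowest vehicle animal was above the highest stigmasterol animal.

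Smaller differences without overlap were fitted for Jade1, a subunit of a histone acetyltransferase complex (-0.21 ± 0.06, at 150, 142 and 133 against 126, 122 and 120 CPM), and for Pag1, an adaptor that recruits the kinase Csk (-0.27 ± 0.08). Usp31, a deubiquitinase, was at -0.26 ± 0.08, Arhgap26, a GTPase-activating protein, at -0.28 ± 0.09 and the RING finger gene Lonrf1 at -0.23 ± 0.07. Ptpn7, a tyrosine phosphatase of blood cells, was at -0.78 ± 0.19, the T-box factor Tbx20 at -0.93 ± 0.29 and the vomeronasal receptor gene Vmn2r12 at -0.64 ± 0.20, all 3 below 2 CPM. Snapc1, a subunit of the complex that starts snRNA transcription, was at 52.8, 45.5 and 50.1 CPM against 31.1, 33.4 and 45.8 CPM, where T93 overlapped the vehicle range (-0.43 ± 0.13).

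**Figure D2:**
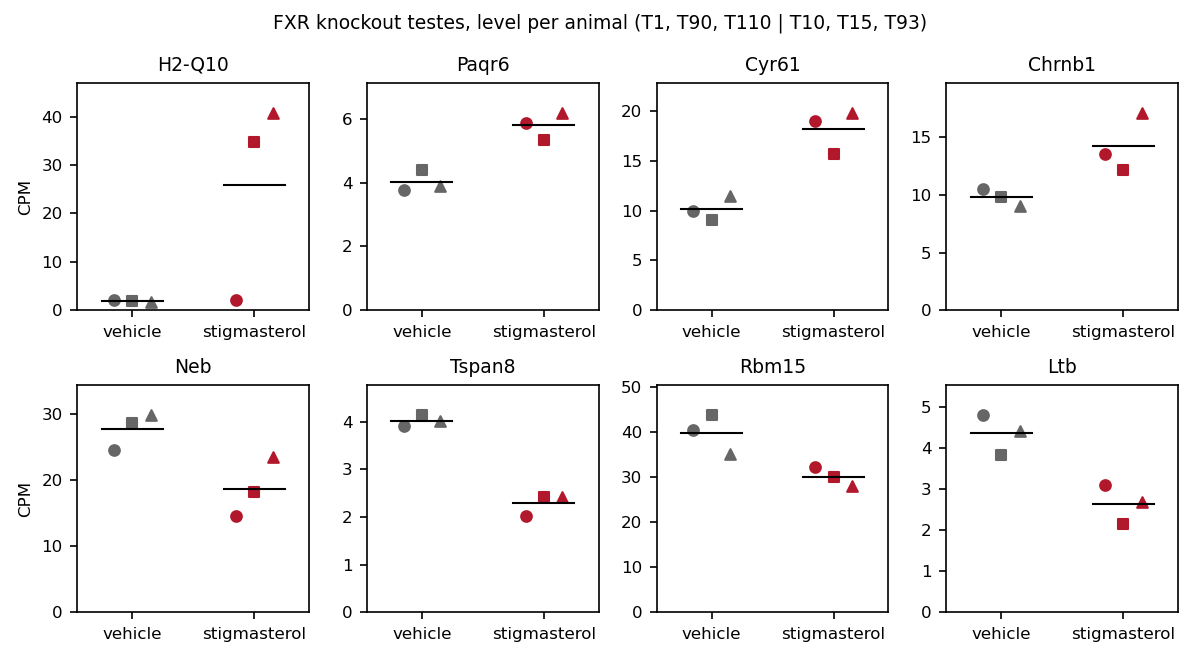
CPM (y axis, from 0) of 8 genes in the 3 vehicle animals (grey) and 3 stigmasterol animals (red), with marker shapes in the order T1, T90, T110 and T10, T15, T93 and a line at each mean. H2-Q10 splits the stigmasterol group, with T10 at 2.16 CPM, while Tspan8, Cyr61 and Ltb keep the groups apart in every animal.

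H2-Q10 lies in the major histocompatibility region of chromosome 17, and so do Ltb and Lta, which encode lymphotoxins beta and alpha, cytokines of the tumour necrosis factor family that organise lymphoid tissue. In a window of that chromosome that starts at 33000000 and spans the region, 191 genes were tested. Of these, 16 (8.38%) had an unadjusted p under 0.05 and 23 (12%) had groups without overlap. Over all genes the shares were 3.85% and 9.59%. The window was set to take in H2-Q10, the gene of smallest p in this same comparison. H2-Q10 and Ltb are themselves in both counts, so the higher shares are no separate support for a difference across the region. Ltb (35194439 to 35196320) was at 4.80, 3.84 and 4.41 CPM under vehicle and 3.09, 2.14 and 2.69 CPM under stigmasterol, without overlap (-0.72 ± 0.22, edgeR adjusted p = 1). Lta (35203165 to 35205351), its neighbour, was at 1.27, 1.32 and 1.65 CPM against 1.45, 1.06 and 0.906 CPM, where the groups overlapped (-0.31 ± 0.32). Of the coding sequence of H2-Q10, 16.6% of 50-base windows also occur in 21 other genes, while none of Lta or Ltb do.

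Levels of these 3 genes in the other groups were unlike those of the vehicle-treated knockouts. H2-Q10 was at 67.8, 77.9 and 64.9 CPM in the 3 BPA-treated knockouts, at 72.0 ± 18.9 (SD, n = 4) in vehicle-treated and at 62.9 ± 14.1 (SD, n = 4) in stigmasterol-treated wild types. The low values were thus those of the 3 vehicle knockouts and of T10. Ltb was at 0.845, 1.07 and 0.836 CPM in BPA-treated knockouts and at 0.936 ± 0.33 (SD, n = 4) in vehicle-treated wild types, and Lta was at 0.206, 0.134 and 0.123 CPM in BPA-treated knockouts, so here the vehicle and stigmasterol knockouts were the high groups.

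BPA against the same vehicle animals, whose values are shared with the stigmasterol comparison, gave 3 called genes (0.0148%), H2-Q10 at a log2 difference of 5.24 (edgeR adjusted p = 0.00137), Ltb at -2.24 (adjusted p = 0.000246) and Lta at -3.17 (adjusted p = 0.0011). Stigmasterol against BPA within the knockouts gave 2 called genes (0.00987%), and 842 (4.16%) at an unadjusted p under 0.05. Lta was higher under stigmasterol by 2.86 ± 0.38 on the log2 scale (edgeR adjusted p = 0.01) and Ltb by 1.52 ± 0.23 (adjusted p = 0.0296), each higher in 3 of 3 animals. H2-Q10 did not pass between the compounds, at -1.44 ± 0.53 (adjusted p = 0.97). Without T10 neither lymphotoxin passed, and without T93 Lta alone did, at 2.99. Whether the doses were matched is unknown here, and the values only stand side by side. All 3 genes lie in 1 region of chromosome 17, the mice had a mixed background, and no strain share of an animal is given. Compound and inherited strain differences in that region therefore cannot be told apart for these genes, and the part of strain was not tested.

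Leaving out T10 took H2-Q10 to 4.35 with an edgeR adjusted p of 8.87e-08. T10 was the 1 stigmasterol animal near the vehicle range, so the smaller p follows from removing it and is no separate support. Leaving out T10 and T93 gave 4.22, which sets T15 alone against the 3 vehicle animals. Without T93, and likewise without T15, the adjusted p of H2-Q10 was above 0.05. Without T15, 1 other gene, Ankrd1, was called instead, at 3.46 with an edgeR adjusted p of 0.0485. Ankrd1 was at 0.0441 CPM in T15 and at 1.38 and 0.992 CPM in T10 and T93. With T15 included it was too low for the count filter, so this call too follows from the removal and is no separate support.

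The authors' deposited table lists 5 genes for this comparison at an adjusted p under 0.05, all higher (0.0153% of 32643). It gives a log2 ratio of 5.24 for Gm13341, 2.97 for Ankrd1, 2.83 for Brinp3, 2.5 for Hoxa5 and 1.6 for Mybpc2. Foxl2os is listed at 0.05, and because these values are rounded to 2 decimals its side of the threshold is unknown. Gm13341 was at 0.502, 0.709 and 0.380 CPM under vehicle and at 0.726, 0.684 and 58.0 CPM in T10, T15 and T93, so its value rested on T93 alone. Its annotated transcript, a pseudogene on chromosome 2, shares 36% of its 50-base windows with the mitochondrial gene mt-Co2 and with Gm28661. Ankrd1, a stress-induced ankyrin repeat protein of muscle, was too low for the count filter here, at 0.161, 0.0967 and 0.0507 CPM against 1.38, 0.0441 and 0.992 CPM. In none of the 5 except Mybpc2 did T15 exceed every vehicle animal.

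Epididymal epithelium and Hox genes had the largest medians of the gene lists examined, and T93 was the highest animal for most of their members. Of 22 genes of epididymal and efferent duct epithelium, 18 were tested and 16 had a positive difference, with a median of 1.00, beside 51.8% and 0.005 over all genes. Only Wfdc2, a secreted protease inhibitor of the epididymis, had an unadjusted p under 0.05, and no member had groups without overlap. T93 was highest of the 6 animals for 15 of the 18 and a vehicle animal, T1, for the other 3. The summed level of the list was 171.3 to 560.8 CPM in vehicle and 182.4 to 1006 CPM in stigmasterol animals, and none of its defining genes (Cdh16, Epcam and Krt8) was at 0.

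Wfdc2 was at 7.07, 2.98 and 5.40 CPM in T1, T90 and T110 and at 10.35, 4.37 and 21.9 CPM in T10, T15 and T93 (1.25 ± 0.48). Lcn2, an iron-scavenging lipocalin of stressed epithelia, was at 18.35, 0.532 and 6.95 CPM against 28.2, 1.06 and 83.8 CPM (2.13 ± 1.36). Krt8, the keratin of simple epithelia, was at 31.7, 2.11 and 11.6 CPM against 26.98, 4.53 and 61.3 CPM (1.03 ± 1.03), its partner Krt18 was at 16.9, 1.35 and 7.30 CPM against 19.8, 4.37 and 56.0 CPM (1.66 ± 0.95), and the tight junction gene Cldn4 differed by 1.44 ± 0.90. In each, T1 among the vehicle animals and T10 and T93 among the stigmasterol animals were high, and T90 and T15 low.

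Hox genes, which set position along the body axis and mark the mesenchyme and epithelium of the reproductive ducts, gave 30 positive differences among 37 tested, with a median of 0.73. Unadjusted p was under 0.05 for 14, all higher, and 4 higher and 1 lower member had groups without overlap, beside 2.46% of all genes higher under 0.05 and 4.63% higher and 4.96% lower without overlap. The Hox list was added later, with results of these data known, so these counts are no separate support. Hoxb9 was at 17.2, 16.1 and 13.1 CPM against 24.65, 20.4 and 37.2 CPM, with every stigmasterol animal above (0.83 ± 0.21). Hoxc8 was at 3.53, 2.80 and 3.73 CPM against 6.45, 3.71 and 26.8 CPM (1.88 ± 0.48) and Hoxa7 at 0.743, 0.516 and 1.11 CPM against 1.54, 0.993 and 6.55 CPM (1.96 ± 0.52). T93 carried most of the size in both, and T15 lay within the vehicle range. Hoxa5 followed, at 0.843, 0.210 and 0.760 CPM against 1.66, 0.442 and 8.11 CPM (2.52 ± 0.74).

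The 7 members on the other side of 0 (Hoxa10, Hoxa11, Hoxc11, Hoxd10, Hoxd11, Hoxd12 and Hoxd13) were all of the posterior end of the clusters, although Hoxc13 of that end was among those higher without overlap. Hoxa11 was at 1.17, 0.0645 and 0.786 CPM in T1, T90 and T110 and at 0.0227, 0 and 0.137 CPM in T10, T15 and T93, and Hoxd13 was at 1.33, 0.0806 and 0.304 CPM against 0.0454, 0.132 and 0.0684 CPM. For Hoxa11 the high vehicle animals were T1 and T110, those with more Cdh16, whereas T10 and T93 with still more Cdh16 were low.

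Without T93 the epididymal median was 0.11 and the Hox median 0.235, with 24 of 37 positive. Without both T10 and T93 they were -1.95 (1 of 18 positive) and -0.26 (10 of 38 positive). With the epididymal score of each library as a covariate they were 0.19 and 0.38. In wild types, stigmasterol gave 5 of 18 and 9 of 37 positive, with medians of -0.56 and -0.15. Igfbp2, an insulin-like growth factor binding protein, went with these genes at 122, 82.6 and 90.1 CPM against 158, 70.7 and 404 CPM (1.11 ± 0.38), and so did Abcc3, an organic anion exporter, at 5.18, 3.21 and 5.37 CPM against 6.81, 2.98 and 15.7 CPM (0.90 ± 0.40).

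**Figure D3:**
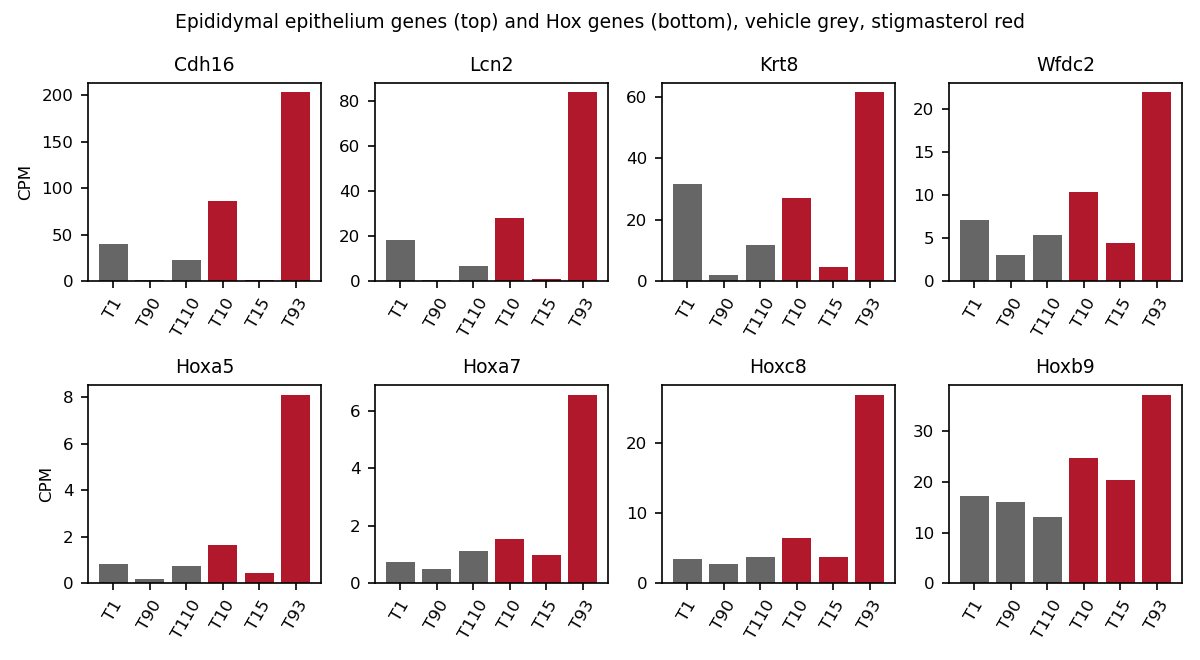
CPM (y axes, from 0, a scale per panel) of 4 epididymal epithelium genes (top) and 4 Hox genes (bottom) in each vehicle animal (grey) and stigmasterol animal (red). T93 is the tallest bar in all 8 panels, T90 and T15 are the lowest for the epithelial genes, and for Hoxb9 alone all 3 stigmasterol animals are above all 3 vehicle animals.

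Genes of cholesterol synthesis were slightly lower as a list, with no member passing the test. Of 26 genes controlled by SREBP2, all tested, 3 had a positive difference, the median was -0.12 and 1 had an unadjusted p under 0.05. Srebf2, the gene of the factor itself, was at 255, 290 and 265 CPM against 220, 253.5 and 238 CPM, just without overlap (-0.19 ± 0.09).

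Cyp51, the lanosterol demethylase, differed by -0.20 ± 0.10 and Sqle, squalene epoxidase, by -0.16 ± 0.12. Both intervals included 0 and did not reach below -0.42. T93 was lowest of the 6 animals for 20 of the 26 genes and the vehicle animal T90 highest for 17. Without T93 the list median was -0.04 with 8 of 26 positive, so its size rested on that library, which also had the highest epithelial genes. In wild types 13 of 26 were positive, at a median of -0.001.

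LXR targets and sterol transport genes did not move together. Of 23 tested, 9 were positive, 1 was higher and 1 lower at an unadjusted p under 0.05, and the median was -0.04. Abca1, the cholesterol exporter and a classical LXR target, was at 272, 290 and 336 CPM against 259, 248 and 255 CPM, all stigmasterol animals below all vehicle animals (-0.24 ± 0.14). Abcg1, its partner for export to HDL, overlapped at 21.9, 25.8 and 23.3 CPM against 24.3, 26.8 and 22.1 CPM (0.04 ± 0.16). Srebf1, the factor of fatty acid synthesis that LXR induces, was also level, with stigmasterol animals at 127, 137.5 and 131.5 CPM, all inside the vehicle range (-0.04 ± 0.12).

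Abcg5 and Abcg8, the pair that pumps plant sterols out of cells of gut and liver, were under 1 CPM in every animal. Abcg5 was at 0.241, 0.226 and 0.203 CPM against 0.408, 0.154 and 0.992 CPM (1.23 ± 0.66), and without T10 and T93 its difference was -0.53. Abcg8 was at 0.1004, 0.145 and 0.203 CPM against 0.0908, 0.0883 and 0.479 CPM (0.63 ± 0.89), and its interval of -1.25 to 2.501 shows how little this depth can say of the pair.

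Within the same list, 2 oxysterol enzymes stood on opposite sides. Ch25h, which makes 25-hydroxycholesterol, was at 0.542, 0.339 and 0.634 CPM against 0.227, 0.110 and 0.154 CPM, without overlap but near the detection limit (-1.60 ± 0.44, edgeR adjusted p = 1). Cyp27a1, the mitochondrial enzyme that makes 27-hydroxycholesterol, was at 42.9, 43.6 and 52.3 CPM against 53.8, 56.0 and 61.4 CPM, again without overlap (0.30 ± 0.14).

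Nr1h4, the FXR gene, and Nr0b2, a gene it controls, were below 2 CPM in every animal of the comparison. Of 20 FXR and bile acid genes 14 were tested, 9 were positive, none had an unadjusted p under 0.05 and the median was 0.08. Nr1h4 reads were at 0.221, 0.290 and 0.279 CPM against 0.318, 0.331 and 0.308 CPM (0.27 ± 0.44), and as the deleted part is not given these reads do not check the knockout. Vehicle-treated wild types had 0.538 ± 0.13 CPM (SD, n = 4). Nr0b2, which encodes SHP, the repressor that FXR induces, was at 1.19, 1.27 and 1.8 CPM against 1.41, 1.72 and 1.59 CPM, with full overlap (0.15 ± 0.31).

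Steroid synthesis in Leydig cells gave no gene with an unadjusted p under 0.05 among 18, with 5 positive and a median of -0.09. Star, which carries cholesterol into mitochondria, ranged widely in both groups, at 74.8, 31.9 and 54.7 CPM against 40.9, 63.15 and 52.1 CPM (-0.05 ± 0.39). Cyp11a1, the side-chain cleavage enzyme, was at 103, 85.3 and 109 CPM against 68.2, 97.5 and 75.7 CPM (-0.30 ± 0.21). Insl3, the Leydig hormone of testis descent, was at 20.7, 20.6 and 23.1 CPM against 12.6, 15.5 and 16.9 CPM, with all stigmasterol animals below (-0.52 ± 0.25). On the other side, Hsd17b3, the enzyme that makes testosterone, was at 19.8, 39.05 and 41.7 CPM against 70.1, 65.7 and 42.1 CPM, without overlap by a small margin (0.82 ± 0.51).

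Receptors of sex steroids and their testicular targets had 3 positive differences among 13 tested and a median of -0.32. Tubb3, a tubulin of neurons and Sertoli cells, was the 1 member with an unadjusted p under 0.05, at 175, 179 and 164 CPM against 122, 117.5 and 134.5 CPM, without overlap (-0.47 ± 0.17). Rhox5, the androgen-dependent homeobox gene of Sertoli cells, was at 15.7, 15.6 and 10.5 CPM against 6.88, 4.61 and 8.28 CPM, also without overlap but with a wide error (-1.08 ± 0.65). BPA-treated knockouts, set against the same vehicle animals, had 6.85, 5.48 and 4.33 CPM of Rhox5. Esrra, an orphan receptor of the estrogen receptor family, was at 25.8, 27.8 and 24.8 CPM against 21.3, 23.9 and 23.8 CPM (-0.18 ± 0.09).

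Of 26 Sertoli cell genes tested, 8 were positive, none had an unadjusted p under 0.05, 4 lay without overlap on the lower side (beside 4.96% of all genes) and the median was -0.11, with members from -0.83 to 0.42. Clu, clusterin, a major secreted protein of these cells, was at 2537, 2555 and 2791 CPM against 2135, 2081 and 2607 CPM, where T93 overlapped (-0.21 ± 0.17). Cldn11, the claudin of the blood-testis barrier, was at 501, 438 and 464 CPM against 402, 418.5 and 428 CPM (-0.17 ± 0.18), and Espn, which bundles actin at the ectoplasmic specialisations, differed by -0.28 ± 0.17. The 15 genes of the barrier's junctions had 4 positive and a median of -0.05.

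Among germ cells, undifferentiated spermatogonia gave 5 positive of 20 and a median of -0.10, with 1 member on each side at an unadjusted p under 0.05. Utf1, a chromatin protein of stem spermatogonia, was at 8.51, 6.24 and 5.12 CPM against 3.68, 4.64 and 3.13 CPM, without overlap (-0.80 ± 0.26, edgeR adjusted p = 1). BPA-treated knockouts had 3.747, 3.06 and 2.73 CPM and vehicle-treated wild types 2.67 ± 0.45 (SD, n = 4), so the vehicle knockouts were the high group. The other one was Lhx1, given above, which was highest in T93 and second in T10, with T15 inside the vehicle range. Zbtb16 (PLZF), which keeps stem spermatogonia undifferentiated, overlapped at 72.25, 90 and 83.6 CPM against 65.4, 74.85 and 78.6 CPM (-0.17 ± 0.17), and so did Id4 (-0.18 ± 0.24).

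Differentiating spermatogonia gave 5 positive of 12 with a median of -0.03. Kit, the receptor that marks them, was the same in all animals within 158 to 167 CPM (-0.03 ± 0.10). Stra8, the gene that commits germ cells to meiosis, was at 191, 167 and 147 CPM against 207, 243 and 141 CPM (0.22 ± 0.34).

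Meiotic genes gave 24 positive of 34, a median of 0.03 and no unadjusted p under 0.05, and their spread was between animals. T93 was lowest of the 6 for 32 of the 34 and T10 highest for 20. Sycp3, of the synaptonemal complex, was at 105, 67.7 and 50.3 CPM against 121, 77.9 and 43.1 CPM (0.11 ± 0.57), and Tex15, needed for recombination, was at 670, 526 and 339 CPM against 509, 388 and 275 CPM (-0.39 ± 0.39). Without T10 the list median was -0.25 with 1 positive, and without T93 0.235 with 32 positive, so no direction can be given. Stigmasterol gave 34 of 34 positive in wild types at a median of 0.26, with 0 at an unadjusted p under 0.05. The list's mean log2 CPM, centred over the 21 libraries, overlapped there. It spanned -1.053 to 0.542 in vehicle-treated and -0.812 to 0.924 in stigmasterol-treated wild types. The 13 genes of later spermatocytes and spermatids had a median of 0.07, the 14 of the piRNA pathway -0.02 and the 20 of proliferation 0.02, with no unadjusted p under 0.05 in any of them.

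Macrophage genes had 3 positive differences of 18, 1 on each side at an unadjusted p under 0.05 and a median of -0.22, beside 51.8% positive and 0.005 over all genes. Lyz2, lysozyme, was at 24.6, 24.95 and 42.1 CPM against 16.1, 19.8 and 23.97 CPM, without overlap (-0.61 ± 0.25). Cd163, the scavenger receptor for haemoglobin, was at 1.59, 1.43 and 1.93 CPM against 1.18, 1.10 and 1.32 CPM (-0.45 ± 0.24) and Cd68 at 6.63, 6.66 and 8.36 CPM against 6.04, 5.39 and 6.48 CPM (-0.27 ± 0.14). H2-Eb1, a class II antigen-presenting chain, was on the other side at 0.883, 0.725 and 0.532 CPM against 0.908, 1.77 and 0.992 CPM (0.76 ± 0.28). This gene lies in the chromosome 17 window described above. It was at 1.72 ± 0.31 CPM (SD, n = 3) in BPA-treated knockouts and 2.11 ± 0.48 CPM (SD, n = 4) in vehicle-treated wild types. Emr1 (F4/80), the defining marker, overlapped (-0.30 ± 0.29). Ptprc (CD45), carried by all white blood cells, was without overlap at 2.93, 2.79 and 4.00 CPM against 2.02, 2.252 and 2.75 CPM (-0.46 ± 0.27). The summed level of the macrophage list was 158.7 to 189 CPM under vehicle and 126.2 to 171.4 CPM under stigmasterol, and these sums overlapped.

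Lymphocyte genes had a median of 0.001 over 13, and interferon-induced genes one of 0.02 over 19, with Oas2, an antiviral RNA sensor, alone at an unadjusted p under 0.05, at 1.29, 0.886 and 0.862 CPM against 1.86, 1.35 and 1.69 CPM (0.69 ± 0.26). Peritubular myoid genes had 11 positive of 12 at a median of 0.14, extracellular matrix genes 17 of 22 at 0.06 and endothelial genes 10 of 14 at 0.04, with no unadjusted p under 0.05 in any of the 3 lists. T93 was the highest animal for 12 of the 12 myoid and 18 of the 22 matrix genes, and without it 1 of 12 and 1 of 22 were positive, at medians of -0.15 and -0.16.

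Skeletal muscle genes came in both directions. Of 13 tested, 2 were higher and 2 lower at an unadjusted p under 0.05. Acta1, the actin of skeletal muscle, was at 15.6, 0.129 and 4.46 CPM against 0.227, 0.0662 and 0.769 CPM, set by T1 and T110 (-4.18 ± 1.85). The troponins Tnnt3 (0.944, 1.01 and 1.70 against 1.88, 1.37 and 2.29 CPM, 0.61 ± 0.26) and Tnni2 (0.79 ± 0.32) were on the other side. Besides Neb, the titin gene Ttn was at 10.8, 12.9 and 11.2 CPM against 10.2, 10.4 and 8.23 CPM, and Actn3, the actinin of fast fibres, at 15.7, 18.9 and 13.8 CPM against 12.9, 10.2 and 10.98 CPM, both without overlap. Without T1 the median of the list moved from -0.28 to 0.27.

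Genes of plasma proteins made in liver gave 2 positive of 15 at a median of -0.54, at summed levels of 29.1 to 39.3 CPM in vehicle and 23.1 to 27.5 CPM in stigmasterol animals. T1 was the highest animal for 12 of the 15, and without it 7 were positive at a median of -0.13. Alb, albumin, was highest in T1 at 7.67 CPM and otherwise at 2.26 CPM or less. Genes of heat shock and endoplasmic reticulum stress had a median of -0.009 over 20, with Asns, asparagine synthetase, at 60.9, 62.7 and 60.9 CPM against 51.65, 50.6 and 52.3 CPM, without overlap (-0.26 ± 0.12). Ppara, the receptor that drives fatty acid oxidation, was at 2.41, 2.97 and 2.23 CPM against 2.02, 1.72 and 1.88 CPM (-0.44 ± 0.19), while the lipid metabolism list had a median of -0.04 over 16. Cd36, the fatty acid transporter, overlapped (-0.65 ± 0.47).

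Further lists held few or no members at an unadjusted p under 0.05. Insulin and growth factor genes had 10 positive of 15 and a median of 0.14, with Igfbp2 alone under 0.05, and nuclear receptors and enzymes of xenobiotic metabolism had 12 positive of 14, with Abcc3 alone. Nerve and glia genes had 3 positive of 9 at a median of -0.09 and 1 member under 0.05, on the lower side. Class I and II genes of the H2 complex, a list added after H2-Q10 had been seen, had 15 positive of 22 at a median of 0.11, with 2 higher and 1 lower under 0.05. The remaining lists had no member under 0.05. Their medians were -0.008 for apoptosis and p53 targets (18 genes), 0.06 for immediate early genes (19), -0.005 for mitochondrially encoded genes (12), 0.02 for proteasome subunits (25), -0.23 for motile cilia (15), 0.13 for squamous epithelium (11), -0.27 for fat (12) and -0.40 for red cells (9).

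**Figure D4:**
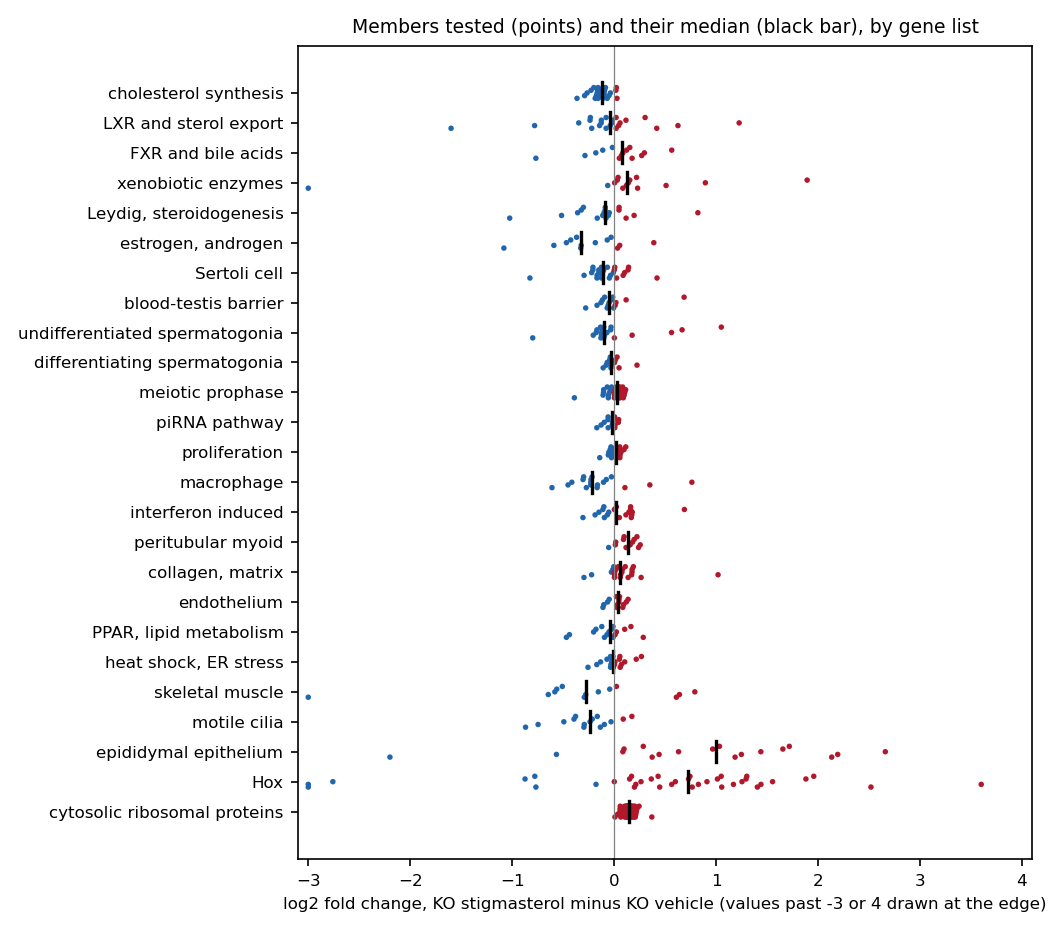
Fitted log2 difference (x axis, stigmasterol minus vehicle in FXR knockout testis) of each tested member of 25 gene lists, blue below 0 and red above, with a black bar at the list median. Most medians sit within 0.3 of 0, the epididymal and Hox lists have the largest at 1.00 and 0.73, and all 76 ribosomal protein genes lie to the right of 0.

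Genes of cytosolic ribosomal proteins differed by little but in 1 direction, and this list was added after that had been seen. All 76 were positive, with a median of 0.14 and a range from 0.01 to 0.37, 33 had an unadjusted p under 0.05 and 23 had groups without overlap, all higher, beside 2.46% and 4.63% of all genes. None was called. The genes' share of all reads was 2.1% ± 0.083 (SD, n = 3) under vehicle and 2.32% ± 0.15 (SD, n = 3) under stigmasterol. T1 was the lowest animal for 52 of the 76 genes, T93 the highest for 44 and T15 for 31, while T10 was highest for none. Without T1, 73 of the 76 were positive and 8 were under 0.05, without T15 73 and 12, and without T93 75 and 6. Without T10 all 76 were positive and 61 were under 0.05, so the count of 33 depended on which animals were included.

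In wild types the same compound went with the opposite sign. All 76 genes were negative there, with a median of -0.24 and 72 at an unadjusted p under 0.05, beside 51.1% positive, 8.26% under 0.05 and 4.42% under 0.05 and lower over all genes. Their share of reads was 2.36% ± 0.074 (SD, n = 4) under vehicle and 2.01% ± 0.12 (SD, n = 4) under stigmasterol. BPA gave a share of 2.15% ± 0.026 (SD, n = 3) in knockouts and 2.08% ± 0.086 (SD, n = 4) in wild types. The difference between the genotypes in the response to stigmasterol, tested as an interaction over all 20254 genes, was called for 2 genes (0.00987%), both of ribosomal proteins, with 1855 (9.16%) at an unadjusted p under 0.05, among them 74 of the 76 ribosomal protein genes. All 76 were positive, at a median of 0.39, beside 50.7% positive and 5.05% higher under 0.05 over all genes.

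Rpl31 (chromosome 1, 39367851 to 39371908), a protein of the large subunit near the exit tunnel, was at 144, 154 and 163 CPM under vehicle and 167.5, 180 and 183 CPM under stigmasterol in knockouts, without overlap (0.20 ± 0.06). In wild types it was at 164 ± 3.5 (SD, n = 4) under vehicle and 128 ± 4.8 (SD, n = 4) under stigmasterol, a log2 difference of -0.36 ± 0.05 that was the 1 called gene of that comparison (0.00494%, edgeR adjusted p = 0.0174). The interaction was 0.56 (edgeR adjusted p = 0.012). Rps27rt (chromosome 9, 114982371 to 114982740) was at 108, 114 and 113 CPM against 130, 134 and 132.5 CPM in knockouts, without overlap (0.24 ± 0.06), and at 114.5 ± 4.0 against 94.25 ± 1.8 CPM (SD, n = 4 each) in wild types. Its interaction was 0.52 (edgeR adjusted p = 0.0151). BPA-treated wild types were also below vehicle-treated ones, at 138.6 ± 6.4 CPM of Rpl31 and 97.4 ± 4.2 CPM of Rps27rt (SD, n = 4 each). Among wild types the vehicle group was thus the high one for both genes. Both interaction calls were lost without T1, without T90, without T15 or without T93, and that of Rps27rt also without T110.

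Rps27rt is a retrotransposed copy of Rps27 (chromosome 3, 90212725 to 90213615), a small-subunit protein. Their coding sequences, taken from the annotated mm10 transcripts as the longest open reading frames, are the same over all 255 bases, and the shared sequence is given because a read inside it belongs to either gene:
Rps27 and Rps27rt, coding: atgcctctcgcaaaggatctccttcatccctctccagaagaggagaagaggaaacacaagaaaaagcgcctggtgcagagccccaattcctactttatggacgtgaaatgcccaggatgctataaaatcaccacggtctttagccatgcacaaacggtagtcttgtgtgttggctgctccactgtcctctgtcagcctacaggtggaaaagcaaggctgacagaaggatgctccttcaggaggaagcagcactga
Rps27 was at 80.2, 81.6 and 77.4 CPM against 86.8, 92.7 and 90.1 CPM in knockouts (0.17 ± 0.08), with an interaction of 0.49 (edgeR adjusted p = 0.135). Every 50-base window of this sequence also occurs in transcripts of other genes, 9 in all, and for Rpl31 87.1% of windows do, so both called genes are ones whose reads the authors' counting could split among copies.

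**Figure D5:**
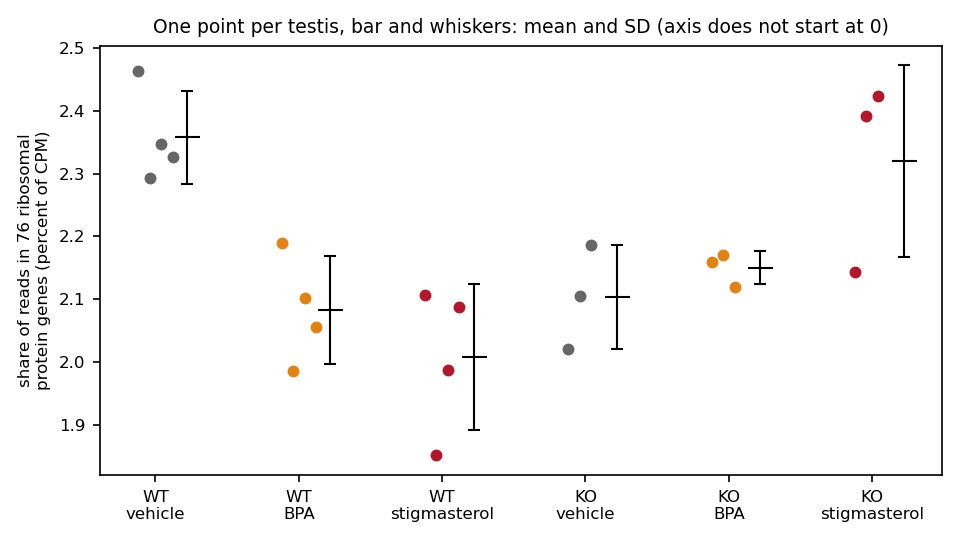
Percent of a library's CPM in 76 cytosolic ribosomal protein genes (y axis, not from 0) for each animal of the 6 groups, with mean and SD. The stigmasterol group is above vehicle in knockouts (2.32% against 2.1%) and below it in wild types (2.01% against 2.36%), and T10 at the bottom of the knockout stigmasterol group overlaps the vehicle animals.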

How the data were processed

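Poly-A RNA of 21 testes was sequenced from unstranded TruSeq libraries. Per the submitters' processing notes, reads were handled with Bowtie2 2.1.0, TopHat2 2.0.10, CASAVA 1.8.2 and Bowtie, and the build was mm10. The deposited table holds raw read counts per gene, which were used for all tests. The authors' normalized values (signal, per the file headers) were the raw counts times 1 factor per library, within 0.1% for genes with 100 or more counts. These values and those divided by gene length in kb (signal, per the file headers) were not tested. The authors' deposited log2 ratios and p-values, the latter rounded to 2 decimals, were used only for their 5 called genes and Foxl2os, and no source used here names their test.

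Counts of 20254 of 32643 genes (filterByExpr, minimum count 10, total 15) were TMM-scaled and fitted over all 21 libraries, 1 coefficient per group, with edgeR 4.0.16 quasi-likelihood in R 4.3.3, Benjamini-Hochberg adjustment over all genes and a threshold of 0.05. All 6 groups were fitted together so that they share 1 estimate of spread. The common biological coefficient of variation was 19.2%. Log2 CPM values used a prior count of 2. DESeq2 1.42.0, limma-voom (limma 3.58.1), other scalings, filters, sample sets and leaving out each of the 6 vehicle- and stigmasterol-treated knockouts were alternatives. No BPA-treated or wild-type animal was left out alone. The scripts were checked on simulated data.

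Named genes are the 15 of smallest p in each direction that had a conventional symbol and whose higher group averaged 1 CPM or more, list members by smallest p and order in the list, and 10 genes of sterol, bile acid and testis biology. Other genes given with values were chosen after their values were seen. The members and the 35 lists were chosen with earlier results of these data known, and 3 lists (ribosomal proteins, Hox, H2) were added later. Some results are not reported here.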

Additional observations from a re-analysis of the deposited data

Results flagged for a closer look

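The response to stigmasterol differed between the genotypes, by the test of the difference itself, for 2 genes. Rpl31 had a log2 interaction (knockout minus wild type) of 0.56 (edgeR adjusted p = 0.012), being higher under stigmasterol in 3 of 3 knockouts and lower in wild types. Rps27rt had one of 0.52 (edgeR adjusted p = 0.0151), with the same signs. Both calls were lost when T1, T90, T15 or T93 was left out. BPA-treated wild types were also below vehicle-treated ones for both genes, so lower wild-type levels were not particular to stigmasterol. Both genes share sequence with other genes, whose part in these values was not tested.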

How the results depend on the processing

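The count of called genes under stigmasterol against vehicle, 0, became 1 with DESeq2 and 1 with only the 6 libraries fitted, and ranged from 0 to 1 when 1 animal was left out. It was 2 without those 9 libraries in which Cdh16 reached 10 CPM, which leaves 1 animal against 1 with the spread taken from other groups, and 1 without T10 and T93, which leaves T15 alone in its group. The 2 interaction calls became 136 with DESeq2, 0 without a filter on low counts, 0 to 11 when 1 of the 6 animals was left out, 0 without the Cdh16 libraries and 1 without T10 and T93. The 2 calls against BPA became 6 with DESeq2, 0 with only the 9 knockouts, 0 to 7 when 1 of the same 6 animals was left out (no BPA-treated or wild-type animal was), 8 without the Cdh16 libraries, 0 without T10 and T93 and 8 with the epididymal score as covariate. The cause was not tested.

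Of 1768 alternative values for 94 gene results, 1706 kept their direction and side of the threshold and 35, of 20 genes, changed sign. Without the Cdh16 libraries the log2 difference was -0.11 for Abcc3, -0.54 for Abcg5, -0.7 for Abcg8, -0.29 for Cdh16, 0.19 for Cyp11a1, -1.31 for Foxl2, -0.05 for Gm13341, -0.23 for Igfbp2 and 0.98 for Star. Without T10 and T93 it was -0.62 for Abcc3, -0.53 for Abcg5, -0.72 for Abcg8, -4.48 for Cdh16, -2.17 for Cldn4, -1.28 for Foxl2, -0.56 for Foxl2os, -0.43 for Hoxa5, -0.48 for Igfbp2, -0.96 for Krt18, -1.74 for Krt8, -3.02 for Lcn2, -0.04 for Lhx1os, 0.02 for Srebf1, 0.23 for Star and -0.24 for Wfdc2. It was 0 for Cdh16 with the covariate and 0.04 for Star with limma-voom. Leaving out 1 animal gave -0.03 to 0.11 for Abcg1, -0.71 to 0.99 for Abcg8, -0.13 to 0.05 for Srebf1, -0.31 to 0.27 for Star and -0.29 to 0.44 for Sycp3. The Cdh16 settings, the covariate and robust estimation were chosen after seeing the data. No paired analysis was possible because the groups share no replicate numbers. Below about 1 CPM, few reads limit what can be seen.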
